A study of Mus musculus with 32 samples.

Results

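The upper part of the small intestine was compared with the lower part in newborn mice, using the libraries labelled intestine (top) and intestine (bottom) at P1 and P5, which are 1 and 5 days after birth. There were 4 top and 4 bottom libraries among the 32 of the series, grouped by their tissue and stage labels. Total RNA was sequenced after removal of ribosomal RNA, from intestine that had been emptied and divided into a top and a bottom portion. Each part was represented by 1 wild-type and 1 percc1-/- library at P1 and again at P5. All mice had a mixed 129SvEv and C57BL/6 background kept by breeding siblings. The percc1-/- mice were homozygous for an allele made in W4/129S6 embryonic stem cells, in which 1512 bp of chromosome 17 (25175032 to 25176543 on mm9) had been exchanged for a single loxP site. The deletion is in the germ line, so every cell of those mice carried it. Nothing in the labels tells whether each library came from its own animal, whether tissue was pooled, or whether a top and a bottom library came from the same animal, so that p-values measure only the spread between these libraries, which may be partly technical. Transcription of the deleted stretch was not analysed here. As a check of the genotype labels, Gip, the hormone of the upper intestinal K cell, stood between 14.2 and 25.6 FPKM in the 4 wild-type libraries and between 0 and 0.345 FPKM in the 4 percc1-/- libraries.

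The small intestine runs from the duodenum, beside the stomach outlet and the pancreatic and bile ducts, to the ileum, which opens into the large bowel. Its upper end digests food and takes up iron, folate and sugars under transcription factors such as Pdx1 and Gata4. Its lower end takes back bile acids through Slc10a2 and Fabp6 and answers them with the hormone Fgf15, and in suckling animals it swallows milk protein whole into lysosomes. Both parts are continuous, and the labels name no landmark for the place of the division.

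Levels are given in FPKM, fragments of a gene scaled to transcript length and to all mapped fragments of the library, so that levels of different genes can be compared. Where 4 values follow each other they belong to P1 percc1-/-, P1 wild type, P5 percc1-/- and P5 wild type, in this order. Differences are top minus bottom on the log2(FPKM + 1) scale, on which low genes appear to change less than they do. They come from limma with stage and genotype as covariates, with their standard error (SE), over 4 top against 4 bottom libraries. A gene was called where its Benjamini-Hochberg adjusted p was under 0.05 among the 12746 genes whose mean reached 1 FPKM. No read numbers were given, so the depth behind a value is unknown. In a sum over bulk tissue, fewer cells of a type and less RNA per cell cannot be told apart.

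The 8 libraries all held intestinal epithelium by the level of Fabp2, a fatty acid carrier of the enterocyte (45.5 to 69.2 FPKM), and of the intestinal transcription factor Cdx2 (15.1 to 24.9 FPKM). Summed over 8 epithelial markers, they reached between 283 and 383 FPKM. They also held muscle of the wall, with sums over 12 smooth muscle genes between 199 and 356 FPKM. Several of the percc1-/- libraries stood apart from their wild-type counterparts in genes of neighbouring organs. The top library at P1 held the acid pump of the parietal cell (Atp4a at 29.8 FPKM, against at most 0.454 FPKM in the other top libraries) and also the ileal gene Fabp6 and the large bowel gene Car1, at 16.9 and 14.0 FPKM. The top library at P5 held Car1 at 11.7 FPKM and Hoxb13, the last gene of its Hox cluster, at 7.14 FPKM, while the 2 wild-type top libraries listed Hoxb13 at 0. The bottom library at P5 held Atp4a at 4.60 FPKM, and the bottom library at P1 held Gata4 at 17.4 FPKM and Fgf15 at 0.233 FPKM. The P1 percc1-/- pair ran opposite to wild type in 13 of the 21 genes called higher in the wild-type bottom, described below, and in 3 of the 42 called higher in the wild-type top. The P5 percc1-/- pair did so in 3 and 12 of them. The labels are used as given. Whether the place of the cut or an exchange of tissue or labels had a part in these values was not tested, and results that rest on these libraries are given with their values in each of them.

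The 1 gene called over all 8 libraries was a long noncoding RNA of the upper part. 2210019I11Rik, named Plut in RefSeq, is transcribed from the strand opposite to Pdx1, which patterns the duodenum and pancreas. In mm9, 2210019I11Rik lies at chr5:148040172-148083097 on the minus strand and Pdx1 at chr5:148081535-148089584 on the plus strand, so that they overlap by 1563 bases that hold 0 shared exon bases. 2210019I11Rik stood at 7.38, 7.62, 5.46 and 7.17 FPKM in the top and at 0.547, 0.229, 0.0346 and 0.102 FPKM in the bottom. Every top library was at least 5.46 FPKM and every bottom library at most 0.547 FPKM. The difference was 2.68 ± 0.14 (SE), with a limma adjusted p of 0.00551. That 1 call is 0.00785% of the genes tested, and 848 genes (6.65%) had an unadjusted p under 0.05. 2210019I11Rik stayed called in 4 of the 8 fits that each left out 1 library, with differences between 2.59 and 2.82. Without bottom P1 wild type, bottom P5 percc1-/-, top P1 wild type or top P5 wild type the adjusted p was 0.0620, 0.0692, 0.0508 and 0.0625 in turn.

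Pdx1, the gene beside it, stood at 4.51, 5.84, 4.71 and 7.56 FPKM in the top and at 0.997, 0.257, 0.155 and 0 FPKM in the bottom. The groups did not overlap, and the difference of 2.31 ± 0.26 (SE) did not pass over all 8 libraries (adjusted p = 0.215). The kit kept strand, but the sources used here do not give whether the counting used it. The annotated exons of Pdx1 and 2210019I11Rik share 0 bases, so reads on them fall at different places. Within the overlap, reads from an intron of either gene over an exon of the other could not be told apart without strand.

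The 250 bases before the start sites of both genes are shown because these neighbours both separated the parts, and those of Reg1 and Sycn because they had the smallest p after 2210019I11Rik. The sequences are RefSeq's on GRCm38.p6, 5′ to 3′ on the strand of each gene, with GATAA or its reverse complement TTATC, the core letters that Gata factors bind, in capitals. On that build they lie at chr5:147271522-147271771 (minus strand) for Plut, chr5:147269847-147270096 (plus strand) for Pdx1, chr6:78425733-78425982 (plus strand) for Reg1 and chr7:28540635-28540884 (plus strand) for Sycn.
Plut: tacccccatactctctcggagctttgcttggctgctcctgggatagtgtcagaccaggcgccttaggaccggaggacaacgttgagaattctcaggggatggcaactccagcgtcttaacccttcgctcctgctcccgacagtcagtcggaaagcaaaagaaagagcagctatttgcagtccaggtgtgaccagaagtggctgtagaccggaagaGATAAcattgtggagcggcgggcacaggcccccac
Pdx1: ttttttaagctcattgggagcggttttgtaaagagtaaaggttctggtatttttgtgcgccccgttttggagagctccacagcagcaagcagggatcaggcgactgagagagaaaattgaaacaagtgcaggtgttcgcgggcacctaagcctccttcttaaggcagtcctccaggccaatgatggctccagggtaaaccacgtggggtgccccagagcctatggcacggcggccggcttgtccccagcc
Reg1: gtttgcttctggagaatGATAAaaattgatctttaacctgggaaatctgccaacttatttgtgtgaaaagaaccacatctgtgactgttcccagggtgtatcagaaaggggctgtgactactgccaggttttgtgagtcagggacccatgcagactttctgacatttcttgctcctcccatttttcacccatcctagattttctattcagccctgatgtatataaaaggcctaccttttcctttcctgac
Sycn: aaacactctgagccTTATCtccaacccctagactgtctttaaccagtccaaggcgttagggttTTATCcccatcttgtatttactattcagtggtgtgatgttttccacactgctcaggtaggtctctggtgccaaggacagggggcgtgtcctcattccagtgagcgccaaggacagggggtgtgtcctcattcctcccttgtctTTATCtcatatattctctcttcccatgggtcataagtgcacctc
The window of Sycn holds 3 matches, those of Plut and Reg1 hold 1 each, and that of Pdx1 holds 0. Of 32841 promoter windows of this length in the table, 22.6% hold at least 1 match on either strand. The homeodomain letters TAATTA, found in 4.84% of those windows, have 0 matches in these 4. A match says only that the letters are there.

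Reg1 and Sycn had the next smallest p-values. Reg1, a lectin of the regenerating family made in the duodenum and the pancreas, stood at 26.5, 27.5, 21.2 and 28.0 FPKM in the top and at 4.59, 2.41, 1.04 and 1.81 FPKM in the bottom. Its difference was the largest among the genes whose groups did not overlap and whose mean was at least 5 FPKM in the higher part, at 3.03 ± 0.26 (SE), and its adjusted p was 0.0531. Sycn, which encodes a zymogen granule protein, stood at 2.82, 7.45, 4.03 and 7.92 FPKM in the top and at 0, 0.119, 0.0896 and 0 FPKM in the bottom. Sycn differed by 2.55 ± 0.22 (SE), also at an adjusted p of 0.0531. Its 2 highest libraries, the wild-type top at P1 and P5, were also the highest in exocrine pancreas genes, whose sum over 21 genes was 49.0, 282, 47.8 and 365 FPKM in the top and 16.8 to 24.2 FPKM in the bottom. The part of pancreatic RNA in the Sycn difference was not tested. Reg1 was at similar levels in all 4 top libraries. Reg1 and Sycn were therefore just outside the threshold, while 2210019I11Rik was inside it. In mm9 Reg1 is at chr6:78375974-78378661 and Sycn at chr7:29325904-29327229, both on the plus strand.

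A water channel and an activating protease followed. Aqp8, a water channel of the absorptive cell, stood at 8.45, 20.3, 23.9 and 24.9 FPKM in the top and at 0.461, 4.81, 2.13 and 7.84 FPKM in the bottom (difference 2.29 ± 0.29 SE, adjusted p = 0.309). Its lowest top library and highest bottom library were close, at 8.45 and 7.84 FPKM. Tmprss15, the enteropeptidase that activates trypsin in the duodenum, stood at 6.32, 8.36, 1.19 and 10.3 FPKM in the top and at 0.453, 0.108, 0.0271 and 0.0994 FPKM in the bottom. The percc1-/- top library at P5 was the low one, and it was also low in other genes of the stomach end, described below.

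**Figure D1:**
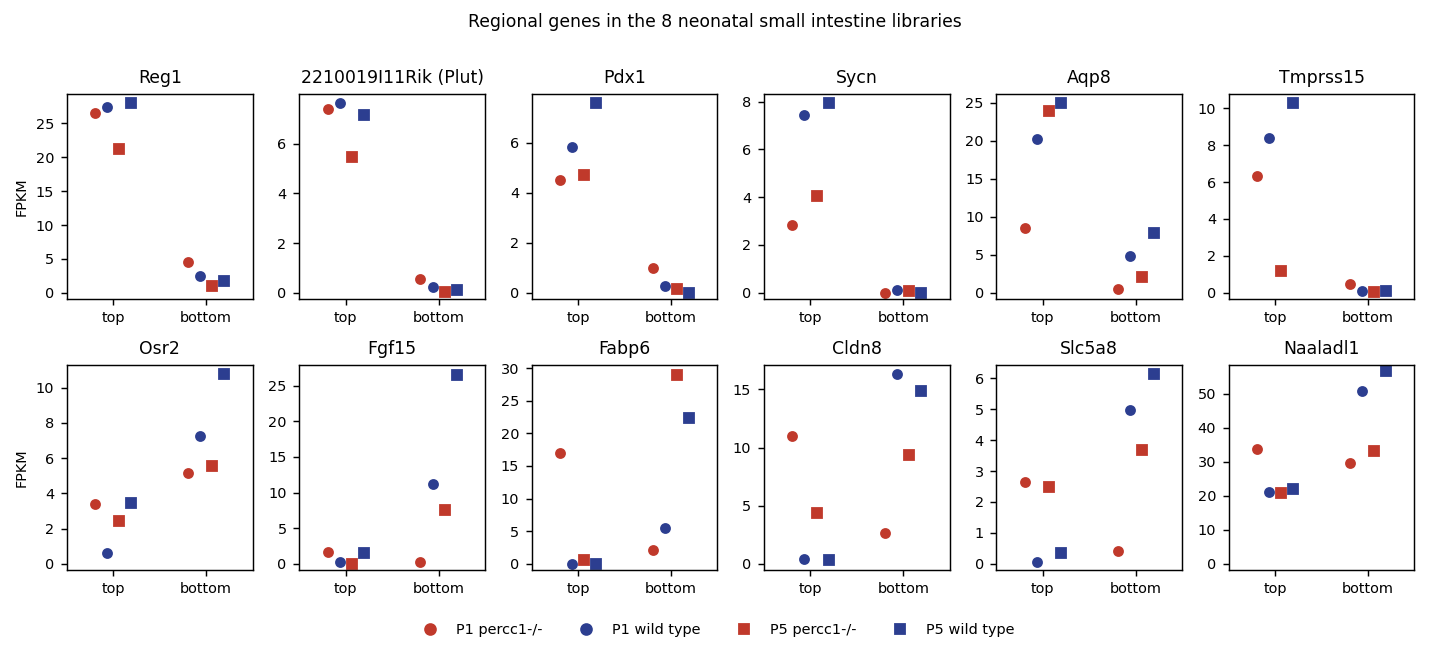
Levels in FPKM (vertical axes) of 12 genes in the 4 top and 4 bottom libraries, 1 point a library, with circles for P1, squares for P5, blue for wild type and red for percc1-/-. The upper row shows genes higher in every top library, such as Reg1 (21.2 to 28.0 FPKM against 1.04 to 4.59 FPKM); in the lower row Osr2 is higher in every bottom library, and the other 5 genes are higher in the bottom in wild type and mixed in percc1-/-.

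Over all genes tested, 196 were higher in all 4 top libraries than in any bottom library (1.54%) and 176 were higher in all 4 bottom libraries (1.38%). With FPKM as deposited the counts were 215 and 104, so that the share higher in the top went from 52.7% to 67.4%. Genes described from these sets were chosen after their values were seen, and not strictly by the size of their difference. Some left out differed by more than some described. Examples are 2210407C18Rik (1.89) in the top and Zfp219 (-1.63), Trp53i13 (-1.48) and Fmn1 (-0.85) in the bottom. None of the genes in these sets other than 2210019I11Rik was called over the 8 libraries.

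Among genes higher in every top library, the trypsin gene Prss2 and the elastase gene Cela3b stood at 20.7 and 20.5 FPKM in the wild-type top at P5 and at most at 0.476 FPKM in the percc1-/- top, and are described with the other pancreatic genes below. Zg16, a lectin of goblet cell and zymogen granules, stood at 15.2, 24.1, 13.4 and 22.5 FPKM in the top and at 5.17, 6.14, 2.59 and 1.38 FPKM in the bottom. Car2, a carbonic anhydrase, stood at 20.3, 7.67, 19.3 and 6.55 FPKM in the top and at 2.18, 4.001, 4.80 and 2.96 FPKM in the bottom, and its 2 highest libraries were both percc1-/-. The fructose transporter gene Slc2a5 stood at 6.62, 8.81, 7.33 and 8.08 FPKM in the top and between 1.32 and 5.37 FPKM in the bottom. Foxq1, a forkhead factor, stood between 7.99 and 12.2 FPKM in the top and between 3.47 and 5.02 FPKM in the bottom. Adh6a, an alcohol dehydrogenase, stood at 5.87, 8.20, 3.62 and 6.67 FPKM against 1.57, 0.493, 2.23 and 0.164 FPKM. Cyp2c65, a cytochrome of foreign compound metabolism, stood between 8.18 and 12.5 FPKM against 2.31 to 7.30 FPKM. Ces2c, a carboxylesterase, stood between 4.06 and 12.1 FPKM against 1.33 to 2.92 FPKM. Adh6a, Cyp2c65 and Ces2c have close relatives in their gene clusters, and reads shared with those could be split between them.

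Genes higher in every bottom library included Osr2, Bend4, Dab2, Slc23a1 and Fga. Osr2, an odd-skipped factor of gut mesenchyme, stood at 3.41, 0.597, 2.43 and 3.47 FPKM in the top and at 5.18, 7.27, 5.55 and 10.8 FPKM in the bottom. Its difference was -1.31 ± 0.35 (SE), with an adjusted p of 0.655. Bend4 stood at 3.69, 3.23, 2.50 and 2.12 FPKM in the top and at 4.37, 7.23, 9.02 and 11.7 FPKM in the bottom. Dab2, the adaptor through which enterocytes of suckling animals take up milk protein, stood between 15.3 and 16.5 FPKM in the top and at 20.3, 19.1, 31.6 and 33.3 FPKM in the bottom (difference -0.66 ± 0.14 SE). The vitamin C transporter gene Slc23a1 stood between 6.67 and 9.37 FPKM in the top and at 9.10, 14.8, 10.6 and 15.4 FPKM in the bottom. The deposited values of 1 top and 1 bottom library crossed, at 9.37 against 9.10 FPKM, and were apart only after rescaling. Fga, a fibrinogen chain best known from liver, stood at 2.52, 0.851, 0.410 and 0.401 FPKM in the top and at 3.09, 10.1, 4.01 and 5.57 FPKM in the bottom. The liver gene Afp was also high in the wild-type bottom libraries, at 47.7 and 37.1 FPKM, while albumin (Alb) stood at most at 2.93 FPKM in any of the 8 libraries.

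Of 40 listed transcription factors that pattern the gut, 33 passed the filter and 0 were called. An unadjusted p under 0.05 was found for 5 of them (15.2%), beside 6.65% of all genes tested. Their differences ran both ways, 16 with a higher and 17 with a lower estimate in the top, and the median rounded to 0.00, as did that of all genes tested, of which 6499 had a higher and 6247 a lower estimate. Pdx1 and Osr2 were the members without overlap, 1 on each side. Gata4, which holds the upper programme of the small intestine, stood at 12.5, 16.1, 19.7 and 18.8 FPKM in the top and at 17.4, 11.9, 10.1 and 12.8 FPKM in the bottom. Its groups overlapped through the P1 percc1-/- libraries, in which the bottom was above the top. Onecut2 gave the same picture, at 7.74, 13.8, 12.3 and 11.6 FPKM in the top and 8.33, 3.14, 0.762 and 0.547 FPKM in the bottom. Both genes stood higher in the top in the other 3 pairs of matched stage and genotype. Hnf4a, a master factor of the enterocyte, stood between 28.1 and 35.0 FPKM in the top and between 26.1 and 37.7 FPKM in the bottom. Creb3l3, which drives fat transport genes, stood between 43.7 and 48.9 FPKM against 33.9 to 44.5 FPKM. Cdx2 stood between 18.2 and 21.4 FPKM against 15.1 to 24.9 FPKM.

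Hox genes, which mark position along the body axis, were at low levels in both parts. Of 39 listed, 14 passed the filter, 0 were called and the median difference was -0.10. Hoxa2, an anterior gene, stood at 2.60, 3.80, 3.68 and 4.18 FPKM in the top and at 2.02, 1.42, 1.31 and 1.26 FPKM in the bottom, without overlap. Hoxc8, a more posterior gene, stood at 1.53, 0.243, 0.546 and 0.500 FPKM in the top and at 0.364, 2.95, 4.97 and 4.42 FPKM in the bottom. The P1 percc1-/- pair was the exception to the order of the others. In the wild-type libraries alone the Hoxc8 difference was -1.74, with a limma adjusted p of 0.0421.

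Of 13 listed genes of bile acid return, a task of the ileum, 11 passed the filter and 0 were called, with a median difference of -0.25. In wild type 1 of 10 tested, Fgf15, was called, and 0 of the list were without overlap over the 8 libraries. Fgf15, the ileal hormone that restrains bile acid synthesis in the liver, stood at 1.70, 0.212, 0.0311 and 1.54 FPKM in the top and at 0.233, 11.2, 7.57 and 26.6 FPKM in the bottom. The P1 percc1-/- bottom library was below that genotype's top library, and the other 3 pairs ran the other way. Fabp6, the ileal bile acid carrier, stood at 16.9, 0, 0.580 and 0 FPKM in the top and at 2.04, 5.47, 29.0 and 22.3 FPKM in the bottom. Again it was the P1 percc1-/- pair that ran against the others. Slc10a2, the ileal bile acid importer, stood at most at 3.26 FPKM in any of the 8 libraries. Osta and Ostb, the 2 subunits of the exporter, were high in both parts, with Osta between 16.3 and 26.0 FPKM in the top and between 23.0 and 40.1 FPKM in the bottom.

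Because several percc1-/- libraries stood apart, the comparison was also made in the wild-type libraries alone, 2 top against 2 bottom with stage as a covariate. That fit has 1 residual degree of freedom and rests on the spread shared across genes. It called 63 of 12801 genes (0.492%), 42 higher in the top (0.328%) and 21 higher in the bottom (0.164%). In the 4 percc1-/- libraries the same fit called 0 of 12906 genes, a share of 0%, with 201 genes at an unadjusted p under 0.05. Of the 42 genes higher in the top in wild type, 15 belonged to the exocrine pancreas list and 6 to the stomach or Brunner gland lists. The genes named from this fit were chosen after their values were seen.

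Of 21 exocrine pancreas genes with values in all 8 libraries, 20 were higher in both wild-type top libraries than in any of the other 6, the exception being Clps, and 15 were more than 5 times as high. The share of all genes with this order was not computed. By the wild-type fit 15 of the 19 tested members were called higher in the top, beside 0.328% of all genes. The filter took the mean over the same libraries, so members near 0 in the bottom, such as Cela2a, passed it only through the top. That share and the medians that follow are therefore partly set by the filter. The median difference was 3.47 over the 19 genes of the list tested in wild type. In percc1-/- it was 0.90, over only those members that also passed the filter in the percc1-/- libraries. Cela2a and Cel were among those that did not, so the 2 medians cover different genes. In 4 of the 18 tested over the 8 libraries (22.2%, beside 1.54% of all genes), 2210010C04Rik, Cela3b, Prss2 and Zg16, the percc1-/- top libraries were also above every bottom library. Cela2a, a pancreatic elastase, stood at 25.6 and 25.03 FPKM in the wild-type top libraries at P1 and P5 and was listed at 0 in the other 6 libraries. Cel, the bile salt lipase, stood at 0.302, 17.2, 1.18 and 34.5 FPKM in the top and at most at 0.367 FPKM in the bottom. The lipase relative Pnliprp1 stood at 0.657, 24.7, 1.66 and 31.6 FPKM in the top and at most at 0.904 FPKM in the bottom. Ins2, the insulin gene of the islet, stood at 6.43 and 9.97 FPKM in the wild-type top libraries, at 0 and 0.857 FPKM in the percc1-/- top libraries, and was listed at 0 in the bottom. Summed over 21 exocrine pancreas genes, the top libraries held 49.0, 282, 47.8 and 365 FPKM and the bottom libraries between 16.8 and 24.2 FPKM. The same genes were present in whole stomach, where Cela2a stood at 14.96 and 12.7 FPKM in wild type and was listed at 0 in percc1-/-. The trypsin genes of this list (Prss1, Prss2, Try4, Try5, Try10 and 2210010C04Rik) are near-identical copies, so that the reads of each cannot be told apart with certainty. Pancreatic tissue lies against the duodenum, and the share of these reads that came from tissue left attached was not tested.

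Genes of gastric and duodenal mucus were also among the wild-type calls. Tff2, the trefoil factor of the mucous neck cell and of Brunner's glands, stood at 26.1, 27.7, 0.393 and 32.8 FPKM in the top and at 1.38, 1.04, 3.67 and 1.79 FPKM in the bottom. Muc6, the gel mucin of the same glands, stood at 22.2, 15.7, 0.600 and 16.6 FPKM in the top and between 0.480 and 0.819 FPKM in the bottom. Gkn3, a gastrokine, stood at 24.2, 19.2, 0.283 and 20.5 FPKM in the top and between 0.250 and 0.738 FPKM in the bottom. All 3 were high in 3 of the 4 top libraries and within or under the range of the bottom in the percc1-/- top library at P5. Of the 7 genes on this list, 6 passed the filter and all 6 had a higher estimate in the top, with a median difference of 1.95 over the 8 libraries, where 0 were called. In wild type 5 of them were called. Members low in the bottom, such as Muc6 and Gkn3, passed the filter only through the top, so these counts and the median are partly set by it. The parietal cell gene Atp4a stood at 0.185 and 0.454 FPKM in the wild-type top libraries, while the P1 percc1-/- top library held it at 29.8 FPKM.

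**Figure D2:**
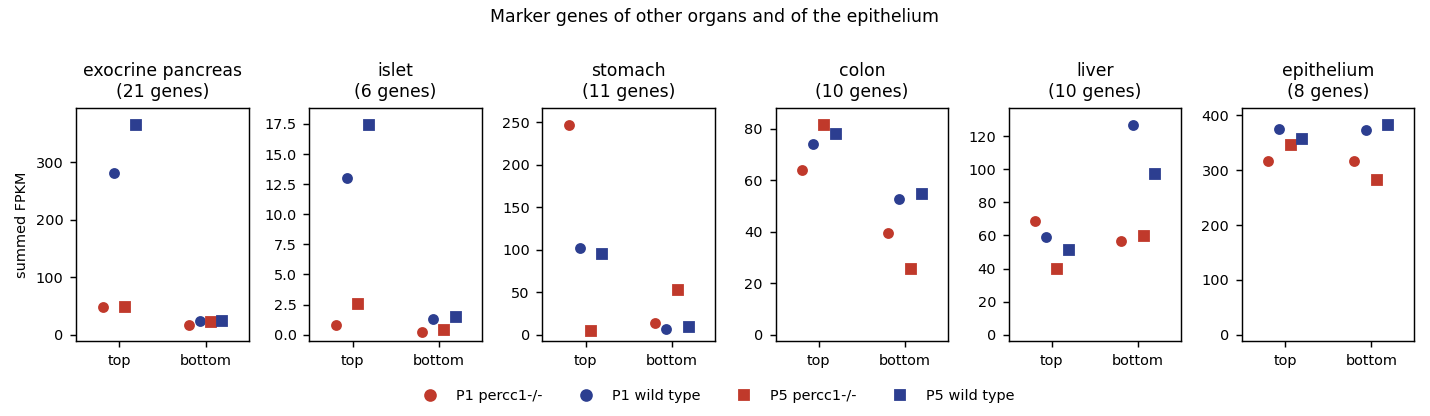
Summed FPKM (vertical axes) of marker lists for exocrine pancreas, islet, stomach, colon, liver and intestinal epithelium in the 4 top and 4 bottom libraries, 1 point a library, with the symbols and colours of the plot of regional genes. Exocrine pancreas reaches 282 and 365 FPKM in the wild-type top libraries and at most 49.0 FPKM elsewhere, stomach reaches 247 FPKM in the P1 percc1-/- top library, and epithelium stays between 283 and 383 FPKM.

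Fgf15, Cldn8, Slc5a8 and Bcl2l15 were among the genes called higher in the wild-type bottom. Fgf15 differed by -3.37 (adjusted p = 0.013). Cldn8, a sealing claudin of the distal gut, stood at 0.379 and 0.295 FPKM in the wild-type top and at 16.3 and 14.9 FPKM in the wild-type bottom, a difference of -3.61 (adjusted p = 0.013). In percc1-/- the order was not held, with Cldn8 at 11.02 and 4.38 FPKM in the top and 2.63 and 9.36 FPKM in the bottom. Slc5a8, a sodium-coupled carrier of short-chain fatty acids, stood at 0.0479 and 0.348 FPKM in the wild-type top and at 4.97 and 6.12 FPKM in the wild-type bottom (difference -2.44, adjusted p = 0.0205). Its percc1-/- values were 2.66 and 2.47 FPKM in the top and 0.405 and 3.67 FPKM in the bottom. Bcl2l15 stood at 7.84, 0.548, 1.09 and 0.550 FPKM in the top and at 2.84, 12.01, 17.4 and 18.6 FPKM in the bottom.

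Naaladl1 and Guca2a were called higher in the wild-type bottom too. Naaladl1, a brush border peptidase of the ileum, stood at 33.7, 21.2, 20.8 and 21.9 FPKM in the top and at 29.5, 50.9, 33.2 and 56.7 FPKM in the bottom, with a wild-type difference of -1.24 (adjusted p = 0.0352). Guca2a, which encodes guanylin, stood at 32.2, 10.9, 17.5 and 14.1 FPKM in the top and at 19.5, 39.1, 31.8 and 46.0 FPKM in the bottom. For Guca2a, as for Bcl2l15, the P1 percc1-/- pair ran opposite to the other 3 pairs. Without both P1 percc1-/- libraries, an alternative added after the values were seen, 5 genes were called over the other 6 libraries: 2210019I11Rik (2.80, adjusted p = 0.0214) and Reg1 in the top and Fgf15, Bcl2l15 and Tcirg1 in the bottom. Tcirg1 and 2010016I18Rik were also called, on values listed at 0 in some libraries and not in others. Tcirg1 stood at 18.4, 0, 0 and 0 FPKM in the top and between 17.1 and 27.6 FPKM in the bottom. A listing at 0 could be a failed estimate or a true absence, which was not tested. Among genes with a median of at least 5 FPKM, 47 have one in some of the 8 libraries, Gip, Cck and Pyy among them.

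The genes called in wild type were set beside their values in percc1-/-. Of the 42 called higher in the top, 24 had enough signal for a percc1-/- estimate and 21 of those were also higher in the top. The median difference was 0.89 in percc1-/- over those 24 genes and 3.05 in wild type over all 42, so the 2 medians cover different genes. In 9 of the 24 the groups did not overlap over all 8 libraries, where 1.54% of all genes tested were higher in every top library: 2210019I11Rik, Adh6a, Aqp8, Glod5, Pdx1, Reg1, S100b, Sycn and Tmprss15. Of the 21 called higher in the bottom, 18 had an estimate in percc1-/- and 13 of those were lower in the top. The median difference was -0.28 in percc1-/- over those 18 genes and -2.11 in wild type over all 21. Fga was the 1 gene of the 18 without overlap, beside 1.38% of all genes. Genes were selected here in wild type, whose libraries are among the 8, so that the counts without overlap and a smaller difference in the other genotype are partly built into the choice.

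**Figure D3:**
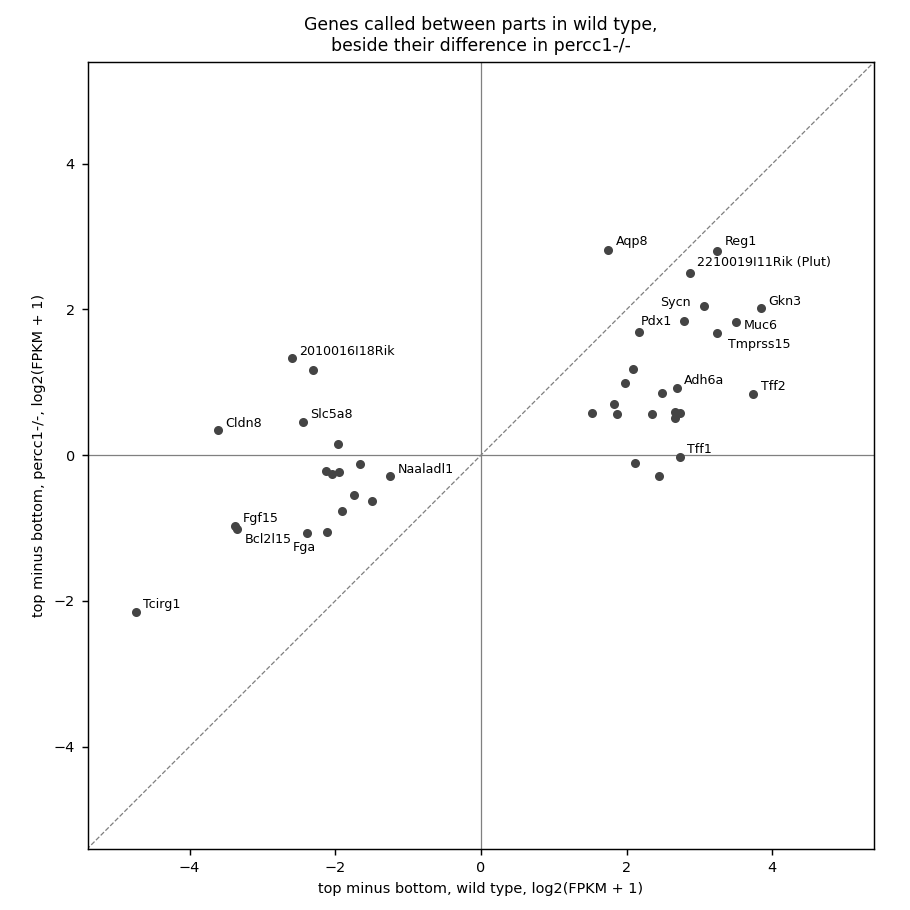
Difference between top and bottom on the log2(FPKM + 1) scale in wild type (horizontal axis) and in percc1-/- (vertical axis), 1 point for each gene called in wild type with an estimate in both genotypes, and a dashed line where the 2 are equal. Reg1 (3.25 and 2.81) and 2210019I11Rik (2.87 and 2.50) lie near the line, and Cldn8 lies at -3.61 and 0.34.

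The test of the difference itself, the interaction of part with genotype, called 17 genes of 12746 (0.133%), and 11 of them were pancreatic enzymes of the list. On the log2(FPKM + 1) scale the top minus bottom difference of Cela2a was lower in percc1-/- by an estimate of -4.69, that of Cel by -3.97, that of Try5 by -3.67, that of Cela3b by -3.66 and that of Prss2 by -3.61. These are fitted values that depend on the added 1 and are no bound on a fold. Car1, a carbonic anhydrase of the large bowel, had an estimate of 3.65, from 14.0, 0, 11.7 and 0.098 FPKM in the top and at most 0.337 FPKM in the bottom. Dnajc19 had an estimate of 4.22, which rested on a listing at 0 in both percc1-/- bottom libraries beside 15.8 to 25.1 FPKM elsewhere. None of the 17 was called in any of the 8 fits that left out 1 library. The interaction of part with stage called only Creb3 (0.00785% of genes), which stood between 14.7 and 20.8 FPKM in 6 libraries and was listed at 0 in both bottom libraries at P5. In mm9 Creb3 overlaps Gba2 on the other strand.

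Several hormones of the gut endocrine cells were near 0 in percc1-/- in both parts, so that their regional order could be read only in wild type. In wild type, at P1 and P5, Gip stood at 24.99 and 25.6 FPKM in the top and at 20.2 and 14.2 FPKM in the bottom. Cck, which releases bile and pancreatic juice, stood at 17.3 and 15.8 FPKM in the top and at 9.93 and 9.18 FPKM in the bottom. Nts, Gcg and Pyy, hormones of the lower gut, ran the other way, while Insl5 of the colon, given below, did not. Nts, neurotensin, stood at 11.1 and 9.78 FPKM in the top and at 20.2 and 22.4 FPKM in the bottom. Gcg, the precursor of GLP-1, stood at 4.51 and 7.50 FPKM against 12.7 and 17.98 FPKM, and Pyy at 5.13 and 5.83 FPKM against 14.1 and 18.6 FPKM.

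Within wild type the 2 groups of libraries did not overlap for any of these 5 hormones. The share of all genes apart in this way, 2 libraries against 2, was not computed, so no result is drawn from it. Of the 14 tested on this list 0 were called. The limma adjusted p was 0.303 for Gip, 0.118 for Cck, 0.117 for Nts, 0.0655 for Gcg and 0.0575 for Pyy. In percc1-/- Gip, Ghrl, Nts and Gcg stood at most at 1.70 FPKM in either part, below every wild-type value of the same gene. Pyy stood at 1.57 and 9.35 FPKM in the percc1-/- top and at 0 and 0.301 FPKM in the percc1-/- bottom, the reverse of wild type. Insl5, a hormone of the colon, stood at 1.47, 9.79, 5.33 and 4.83 FPKM in the top and at 0.461, 0.966, 0 and 1.39 FPKM in the bottom, without overlap. The granule protein gene Chgb stood between 17.5 and 18.2 FPKM in the top and between 15.3 and 19.6 FPKM in the bottom.

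Genes of milk digestion and absorption were expressed in both parts. Of 30 tested genes of fat absorption, 0 were called, 2 had an unadjusted p under 0.05 (6.67%, beside 6.65% of all genes) and the median difference was 0.06. Scarb1, a lipoprotein receptor, was higher in every top library, at 12.4 to 13.5 FPKM against 9.58 to 10.6 FPKM, and Agpat9 was higher in every bottom library after rescaling, at 11.2 to 14.4 FPKM against 14.0 to 18.1 FPKM. Apoa4, an apolipoprotein of the chylomicron, stood between 73.8 and 88.8 FPKM in the top and between 67.9 and 84.0 FPKM in the bottom. Lct, the lactase gene, stood between 35.6 and 47.7 FPKM against 26.7 to 46.0 FPKM. Sis, the sucrase that replaces lactase after weaning, was low in both parts, at 1.05 to 1.88 FPKM. Among transporters, Slc5a1, the sodium-glucose carrier, stood between 25.001 and 31.1 FPKM against 19.4 to 29.9 FPKM. Slc2a2, the basolateral sugar carrier, stood at 19.2, 41.0, 18.4 and 34.1 FPKM in the top and at 18.1, 21.8, 8.10 and 21.0 FPKM in the bottom. In wild type the Slc2a2 values were apart, at 41.0 and 34.1 FPKM against 21.8 and 21.0 FPKM. Of the 29 tested transporters 0 were called over the 8 libraries, with a median difference of 0.05, and Slc2a5, given above, was the 1 without overlap. In wild type 1 of 28 was called, in the bottom.

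Some lists leaned to one side without a single call over the 8 libraries. Of 33 tested genes of protein uptake and the lysosome, 28 had a lower estimate in the top, with a median difference of -0.12. Dab2, Gla and Ctsc of this list were higher in every bottom library after rescaling, which is 3 of 33 beside 1.38% of all genes. Gla, a lysosomal galactosidase, stood between 6.88 and 8.83 FPKM in the top and at 8.70, 13.5, 8.70 and 15.3 FPKM in the bottom. Cubn, the receptor that takes up milk protein with Dab2, stood at 25.2, 28.4, 18.7 and 28.7 FPKM in the top and at 26.9, 40.2, 17.3 and 38.4 FPKM in the bottom. It was higher in the bottom in both wild-type pairs, and not in the P5 percc1-/- pair.

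Of 16 tested genes of ketone, glucose and fat metabolism, 15 had a higher estimate in the top, with a median of 0.16. Pck1, the first step of glucose synthesis, stood at 55.5, 90.9, 84.6 and 97.2 FPKM in the top and at 83.9, 66.5, 31.3 and 77.3 FPKM in the bottom. Pck1 was higher in the top in 3 of the 4 pairs of matched stage and genotype, the exception being P1 percc1-/-.

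Of 17 tested genes of iron, calcium and vitamin uptake, tasks of the duodenum, 0 were called, 5 had an unadjusted p under 0.05 (29.4%, beside 6.65% of all genes) and the median was 0.04, with 10 estimates higher and 7 lower in the top. Slc46a1, the proton-coupled folate transporter, stood at 15.6, 18.6, 16.5 and 21.1 FPKM in the top and at 15.5, 8.65, 5.92 and 9.05 FPKM in the bottom. It was higher in the top by 0.86 ± 0.28 (SE, adjusted p = 0.714), with the P1 percc1-/- pair nearly equal, and it was called when the P1 percc1-/- bottom library was left out. Cybrd1, the duodenal iron reductase, stood at 6.84, 10.9, 10.6 and 7.80 FPKM in the top and at 6.25, 6.03, 4.37 and 4.75 FPKM in the bottom. Slc40a1, the iron exporter ferroportin, stood between 25.5 and 36.3 FPKM against 19.7 to 34.6 FPKM. S100g, the calcium carrier of the enterocyte, stood between 19.1 and 22.3 FPKM against 12.6 to 30.6 FPKM.

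In the remaining lists 0 genes were called over the 8 libraries. Brush border hydrolases had 8 of 19 genes at an unadjusted p under 0.05 (42.1%) and xenobiotic metabolism 8 of 28 (28.6%), beside 6.65% of all genes. On the top side 4 of the 28 genes of xenobiotic metabolism (Adh6a, Ces2c, Cyp2c65 and Cyp4v3, 14.3%) and 3 of 16 goblet cell products (Muc1, Muc4 and Zg16, 18.8%) did not overlap, beside 1.54% of all genes. Median differences were 0.05 for goblet cell products, -0.05 for Paneth and antimicrobial genes, 0.05 for xenobiotic metabolism, -0.05 for arginine synthesis, 0.08 for vitamin A handling, -0.09 for cobalamin uptake, -0.08 for brush border hydrolases and 0.01 for claudins. For cell types of the wall and immune system they were -0.03 for crypt and proliferation genes, 0.10 for leukocytes, 0.07 for smooth muscle, 0.02 for enteric neurons and glia, and 0.07 for interstitial, endothelial and fibroblast genes. Muc13, a surface mucin, stood between 59.1 and 70.8 FPKM in the top and between 49.6 and 86.4 FPKM in the bottom. Myh11, smooth muscle myosin, stood between 38.5 and 51.9 FPKM against 33.9 to 52.9 FPKM. S100b, a marker of enteric glia, was the exception among glial genes, at 1.73, 6.73, 8.12 and 10.4 FPKM in the top and 1.27 to 1.81 FPKM in the bottom, and it was called in wild type (1.98, adjusted p = 0.036). The liver list had a median of -1.09 over 5 tested genes, the colon list 1.16 over 6, the stomach list 1.44 over 9 and the exocrine pancreas list 1.85 over 18. Some pancreas members, Cela2a among them, passed the filter only through the top. In all, 463 of 596 listed genes passed the filter, 0 were called over the 8 libraries by limma, and 82 had an unadjusted p under 0.05 (17.7%, beside 6.65% of all genes). Of the same 463, 22 did not overlap on the top side (4.75%, beside 1.54%) and 7 on the bottom side (1.51%, beside 1.38%).

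Set along the gut at P1 and P5, the same genes had different partners. 2210019I11Rik had a median of 1.21 FPKM in 4 whole stomach libraries, 7.28 FPKM in the top, 0.165 FPKM in the bottom and 0.0957 FPKM in 6 large bowel libraries. The stomach range (0.0851 to 2.16 FPKM) reached over the bottom and large bowel ranges and not into the top. Onecut2 was likewise highest in the top, with medians of 0.753, 11.9, 1.95 and 0.230 FPKM in the same order. Gata4 was shared with stomach, at medians of 12.01, 17.5, 12.4 and 0.181 FPKM. Aqp8 instead had 2 peaks, at medians of 0.197, 22.1, 3.47 and 26.4 FPKM, and its top and large bowel ranges overlapped (8.45 to 24.9 against 10.5 to 42.3 FPKM).

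Genes of the lower part differed in where their level went beyond it. Cldn8 had medians of 0.695, 2.38, 12.1 and 14.1 FPKM from stomach to large bowel, and Slc5a8 of 0.194, 1.41, 4.32 and 10.2 FPKM, so both were highest in large bowel. Osr2 was highest in the lower small intestine, at medians of 0.782, 2.92, 6.41 and 2.27 FPKM, although its large bowel range of 0.767 to 5.49 FPKM overlapped the bottom range of 5.18 to 10.8 FPKM. Fgf15 was highest there too, at medians of 0.105, 0.877, 9.40 and 1.41 FPKM. These levels were set side by side without a test.

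**Figure D4:**
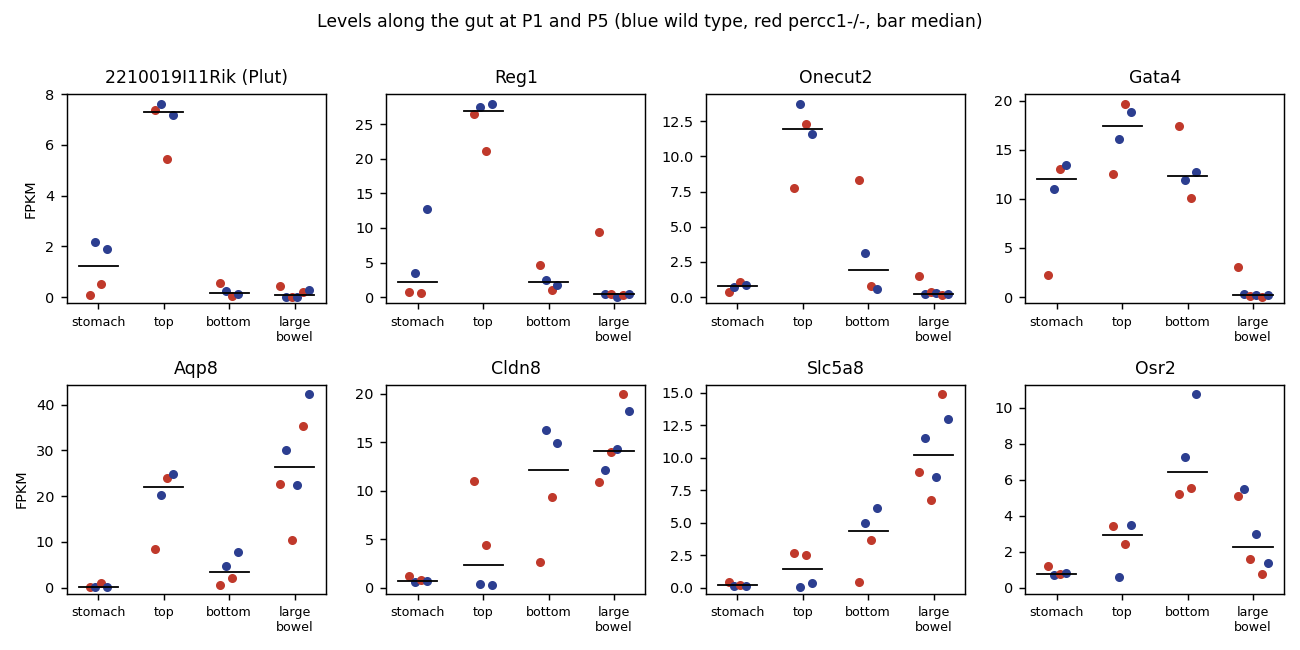
FPKM (vertical axes) of 8 genes in 4 whole stomach, 4 top intestine, 4 bottom intestine and 6 large bowel libraries of P1 and P5, 1 point a library, blue for wild type and red for percc1-/-, with a bar at the median. 2210019I11Rik, Reg1 and Onecut2 peak in the top, Gata4 is shared with stomach, Aqp8 is high in the top and in large bowel, Cldn8 and Slc5a8 are highest in large bowel, and Osr2 has its highest median in the bottom.

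Older libraries that had no part in the fit gave values for the same genes: 2 top libraries at P15 (percc1-/- and wild type) and 4 bottom libraries, percc1-/- and wild type at P10 and at P20. Part and age cannot be told apart there, so no test was made. Counts cover genes of the neonatal fit with values in all these older libraries and a mean of at least 1 FPKM over them. Among these 12296 genes, both P15 top libraries were above all 4 older bottom libraries in 847 (6.89%) and below all 4 in 1672 (13.6%). Of the 42 genes called higher in the neonatal wild-type top, 23 were covered, and 13 of those (56.5%) were above and 0 were below. The others, Sycn and Cela2a among them, were not covered. The filter used these same older libraries, so a gene near 0 in the older bottom was covered only if the P15 top held it. The shares of covered genes, here and for the sets that follow, are therefore partly set by the filter. Of the 21 called higher in the wild-type bottom, 16 were covered, and 10 of those (62.5%) were below and Tcirg1 was above. For covered genes whose neonatal groups did not overlap, 29 of 177 on the top side (16.4%) were above and 7 were below. On the bottom side 38 of 171 (22.2%) were below and 4 were above.

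In the older libraries 2210019I11Rik, Reg1, Pdx1 and Osr2 were apart in the same direction as in the neonatal ones. 2210019I11Rik stood at 15.2 and 11.4 FPKM in the percc1-/- and wild-type top at P15 and at most at 0.946 FPKM in the 4 older bottom libraries. Reg1 stood at 47.3 and 23.6 FPKM against at most 1.72 FPKM, and Pdx1 at 8.70 and 6.99 FPKM against at most 0.220 FPKM. Osr2 stood at 3.10 and 1.51 FPKM against 8.74 to 15.7 FPKM. Onecut2, Gata4, Fgf15, Cldn8 and Slc5a8, whose neonatal groups overlapped, did not overlap here. Onecut2 stood at 13.8 and 11.9 FPKM against 0.586 to 1.26 FPKM, and Gata4 at 14.6 and 20.1 FPKM against 8.65 to 10.9 FPKM. Fgf15 stood at 0 and 0.134 FPKM in the P15 top and between 8.69 and 25.8 FPKM in the older bottom. Cldn8 stood at 0.578 and 0.479 FPKM against 2.72 to 13.01 FPKM, and Slc5a8 at 0.942 and 0.0909 FPKM against 9.54 to 24.2 FPKM. Slc10a2 stood at 0.433 and 0.378 FPKM in the P15 top, and in the older bottom libraries at 8.32 and 0.800 FPKM at P10 and 16.1 and 23.5 FPKM at P20.

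Sycn, Zg16 and Adh6a, which were higher in every neonatal top library, overlapped between the older libraries. Sycn stood at 0.386 and 0.145 FPKM in the P15 top and between 0.243 and 0.409 FPKM in the older bottom. Cela2a was listed at 0 in all 6 older libraries. Zg16 stood at 39.6 and 30.4 FPKM in the P15 top and at 28.8, 11.8, 46.6 and 54.4 FPKM in the bottom at P10 and P20. Adh6a stood at 19.9 and 15.8 FPKM in the P15 top, at 0.675 and 0.812 FPKM in the P10 bottom and at 17.9 and 20.1 FPKM in the P20 bottom.

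**Figure D5:**
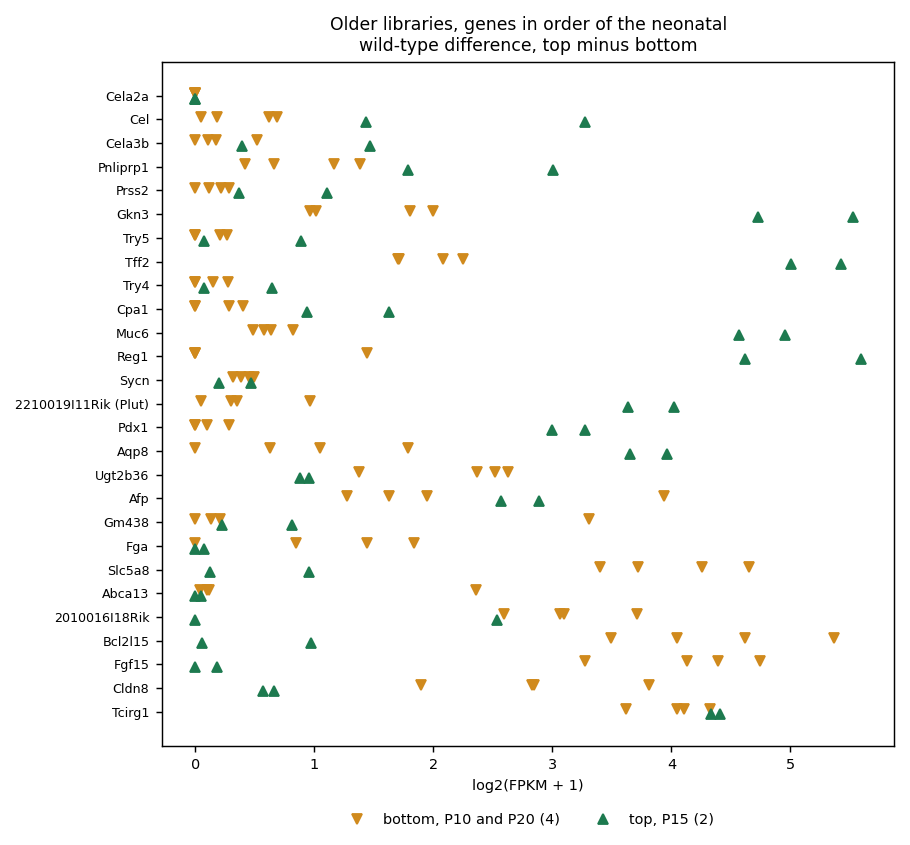
Level on the log2(FPKM + 1) scale (horizontal axis) in the 2 top libraries of P15 (green, pointing up) and the 4 bottom libraries of P10 and P20 (orange, pointing down), for genes in order of their neonatal wild-type difference, from higher in the top to higher in the bottom. 2210019I11Rik, Reg1, Pdx1, Muc6 and Gkn3 have both top libraries above every bottom library, Fgf15, Bcl2l15 and Slc5a8 have both below, and Tcirg1 has both above, the reverse of the neonatal wild-type order.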

How the data were processed

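For each library the authors deposited a table of FPKM values with bounds, 1 record a line. Per the submitters' processing notes, reads were processed on the mm9 build with Cufflinks 2.2.1, SAMtools 0.1.18 and TopHat2 2.0.13. The sources used here do not give the annotation used for counting. Libraries were stranded, per the labels' protocols.

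Records of 1 symbol were summed, and fits left out genes with a failed or merged record in any of their libraries. Rescaling factors (0.887 to 1.07) were the median ratios to the geometric mean of the 8 libraries, over the 11375 genes above 1 FPKM in all of them. The text prints FPKM as deposited, while differences and overlap use rescaled values. limma 3.58.1 in R 4.3.3, with a trended and robust variance prior, was fitted to log2(rescaled FPKM + 1) for genes whose mean reached 1 FPKM, with part, stage and genotype as terms. Tests are two-sided, with Benjamini-Hochberg adjustment over all genes tested and calls under 0.05. The comparison had 4 residual degrees of freedom, and each interaction 3. The code was tested on simulated data.

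The libraries, gene lists and tests were chosen with earlier results of these data known. Symbols of 10 listed genes were matched through an older name. The genes named are those with the 5 lowest p-values in a fit with fewer than 5 calls, regional factors, Hox genes and hormones with a mean of at least 1 FPKM in either part, up to 6 called members and the 2 highest of each other list, and up to 5 each way for the interactions. Not every such gene is printed, and some are not reported here. Other genes were chosen after their values were seen. Promoters come from RefSeq (GRCm38.p6). The median upper half-width of the deposited FPKM bounds was 10.4% to 13.2% of the value for genes at 8 to 12 FPKM, and the highest single gene of a library reached 83.4 to 132 FPKM.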

Additional observations from a re-analysis of the deposited data

Results flagged for a closer look

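In 5 places 1 library lay far from the other 3 of its part by Dixon's test, which chance alone passes in about 5% of groups. The number of groups tested is not given, so the count of 5 cannot be set against that share. Bcl2l15 stood at 7.84 FPKM and Fabp6 at 16.9 FPKM in the P1 percc1-/- top library, where the other top libraries reached at most 1.09 and 0.580 FPKM. Tcirg1 stood at 18.4 FPKM in that library and was listed at 0 in the other 3. 2010016I18Rik stood at 5.35 FPKM in the P5 percc1-/- top library and was listed at 0 in the other 3. With the other 3 at 0, any value above 0 passes, so the test decides nothing for Tcirg1 and 2010016I18Rik. Bcl2l15, Tcirg1 and 2010016I18Rik were named because the wild-type fit called them higher in the bottom. Low values in both wild-type top libraries were therefore built into their choice. The summed stomach markers reached 52.9 FPKM in the P5 percc1-/- bottom library, and between 6.40 and 13.5 FPKM in the other bottom libraries.

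For the interaction of part with genotype, 7 genes were named because that limma term called them, so their number is no separate result. Estimates are on the log2(FPKM + 1) scale. With a pseudocount of 0.1 only Dnajc19 of these genes stayed called, and none did when any 1 library was left out. The term was -4.69 for Cela2a, -3.97 for Cel, -3.67 for Try5, -3.66 for Cela3b, -3.61 for Prss2, 4.22 for Dnajc19 and 3.65 for Car1. The interaction of part with stage had an estimate of 3.97 for Creb3, the only gene that it called. The values for Dnajc19 and Creb3 rest on libraries in which the gene was listed at 0.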

How the results depend on the processing

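The count of 1 gene called over the 8 libraries became 0 with a pseudocount of 0.1, 2 with 0.5, 0 with a mean of at least 5 FPKM, 3 with FPKM as deposited, 4 without covariates, 63 in wild type, 0 in percc1-/-, 0 at P1 alone and 0 at P5 alone. Leaving out 1 library at a time gave 0 to 7 genes. Where limma called 0, between 201 and 1046 genes had an unadjusted p under 0.05. The next 3 alternatives were chosen after seeing the data. Without the 2 libraries that held parietal cell genes 1 gene was called, Tcirg1, and 2210019I11Rik differed by 2.67 with a limma adjusted p of 0.135. Leaving out the P5 percc1-/- top library as well gave 54. Only the P1 bottom library of percc1-/- was then left, and the genotype term takes it up. The difference between parts therefore rests on the wild-type libraries, so this is the wild-type comparison again and no separate alternative. Cela2a differed by 4.70 there and by 4.74 in the wild-type fit. Without both percc1-/- libraries of P1 the count was 5. With a replicate block of matched stage and genotype the count was 1. Deviations of the matched libraries correlated at 0.147, 0.324, 0.0962 and 0.289, which does not establish pairing.

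The interaction with genotype went from 17 genes to 3 with a pseudocount of 0.1 and 2 with a mean of at least 5 FPKM, and that with stage from 1 to 4 with a pseudocount of 0.1. Each gave 0 genes whenever 1 library was left out, with 357 to 1044 and 430 to 1068 genes at an unadjusted p under 0.05. Genes without overlap went from 196 to 119 in the top with a mean of at least 5 FPKM and from 176 to 104 in the bottom with FPKM as deposited. In percc1-/- alone the direction turned for Cldn8 (0.34), 2010016I18Rik (1.33) and Slc5a8 (0.46), and without the P5 wild-type top library for 2010016I18Rik, whose values on leaving out 1 library ran from -1.58 to 0.08 (0.0775). The cause of these changes was not tested. Over the 29 genes followed through 699 alternative values, 614 kept direction and side of the threshold, 9 lost the call, 72 gained one and 4 turned. Only 2210019I11Rik was called at the start, so for the other genes a kept side means that they stayed uncalled. Most of them were chosen because the wild-type fit called them. That fit is among the alternatives, so gains there are built into the choice, and these counts are no measure of stability. With 1 library per part, stage and genotype, and no read numbers, small differences were not detectable.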
